A study of Mus musculus with 8 samples.

Results

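Sterol and fatty acid synthesis was followed through 32 genes, chosen by a fixed list of symbols matched to the Ensembl identifiers in the count files. They are 32 of 54232 identifiers, and all 32 passed the filter on low counts. The list holds 18 enzymes of the cholesterol pathway, 6 genes of sterol sensing and transport, and 8 enzymes that make, desaturate or supply fatty acids. The data are RNA-seq read counts from epidermis scraped off the shaved back skin of female mice, 8 libraries in 6 groups of genotype and treatment. All mice shared an F1 C57Bl x 129 background and were either wild type or REDD1 knockout. REDD1 is the product of Ddit4 and restrains mTOR signalling under stress. Vehicle skin received 200 µl acetone, with 2 libraries for each genotype. TPA skin received 4 µg of the phorbol ester TPA in acetone, with 1 library for each genotype. FA+TPA skin received 2 µg of the glucocorticoid fluocinolone acetonide (FA) 1 h before the same TPA dose, again with 1 library for each genotype. Skin was taken 24 h after TPA. The labels number the vehicle libraries as separate samples without tying them to animals. P-values therefore measure only the spread between libraries, which may be technical. In the treatment comparisons and the genotype comparison across treatments, that spread also holds differences in treatment response between the genotypes.

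Cells build cholesterol from acetyl-CoA through mevalonate, the isoprenoid diphosphates, squalene and lanosterol. Fatty acid synthesis draws on the same acetyl-CoA, which ACLY makes from citrate and ACSS2 from acetate. Both arms are known targets of the SREBP transcription factors, which SCAP escorts from the endoplasmic reticulum when sterols are low and the INSIG proteins hold back when sterols are high. In epidermis, cholesterol and fatty acids go into the lamellar lipids of the barrier, and in sebaceous glands into sebum.

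Promoter sequence is shown for 3 members to place the 2 arms beside each other: Hmgcs1, an entry enzyme of the sterol arm, Ebp, a late sterol enzyme that rose after TPA, and Fasn, the fatty acid synthase. Each line gives the 250 bases before the RefSeq start site (GRCm38.p6), 5′ to 3′ on the gene's strand, with motif matches in capitals. Hmgcs1 lies at chr13:119690101-119690350 (+), Ebp at chrX:8193513-8193762 (-) and Fasn at chr11:120824548-120824797 (-).
Hmgcs1: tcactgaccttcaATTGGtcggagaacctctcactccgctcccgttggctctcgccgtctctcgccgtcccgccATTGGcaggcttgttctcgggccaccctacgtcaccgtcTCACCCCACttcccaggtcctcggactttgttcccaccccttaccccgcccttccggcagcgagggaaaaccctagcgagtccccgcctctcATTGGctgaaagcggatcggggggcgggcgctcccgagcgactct
Ebp: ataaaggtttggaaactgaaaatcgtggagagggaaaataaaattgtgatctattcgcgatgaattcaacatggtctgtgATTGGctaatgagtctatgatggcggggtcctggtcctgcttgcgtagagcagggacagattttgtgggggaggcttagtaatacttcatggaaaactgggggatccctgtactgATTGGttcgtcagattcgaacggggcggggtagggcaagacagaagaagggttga
Fasn: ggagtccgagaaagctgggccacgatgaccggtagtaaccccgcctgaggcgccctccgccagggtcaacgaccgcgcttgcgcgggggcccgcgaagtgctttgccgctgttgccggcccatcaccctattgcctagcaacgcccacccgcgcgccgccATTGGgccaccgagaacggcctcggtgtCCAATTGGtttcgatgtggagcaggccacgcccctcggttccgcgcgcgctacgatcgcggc
The motifs searched, on both strands, were TCACNCCAC (the core of a sterol regulatory element, bound by SREBP), CCAAT (bound by NF-Y) and CACGTG (an E-box). In Hmgcs1 the sterol element match starts 137 bases before the start site, and CCAAT matches, read here as ATTGG, start 237, 176 and 45 bases before it. Ebp has CCAAT matches at 170 and 55 bases. Fasn has them at 90, 62 and 59 bases, where the last pair overlap as one palindrome read on both strands. Of the 32 genes, 26 had a RefSeq window of 250 bases before to 50 after the start. CCAAT was found in 22 of these 26 genes, or 65.7% of their 35 windows, against 37.41% of all 32851 windows. By list, 14 of 15 sterol enzymes, 4 of 5 sensing and transport genes and 4 of 6 fatty acid enzymes held one. CACGTG was found in 5 genes, 17.1% of their windows against 7.15% of all, and TCACNCCAC only in Hmgcs1, against 1.24% of all windows. These matches describe letters in a window and show no binding.

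Library totals ranged from 16874233 to 22560098 counts, so that 3 counts, the floor of detection for counting error only, came to between 0.133 and 0.178 CPM (counts scaled to a library of 1000000). Levels below are CPM normalised by TMM. Fold changes are log2 values with their standard error, and adjusted p-values are Benjamini-Hochberg values over all 19251 tested genes from edgeR's quasi-likelihood test, with 0.05 as the threshold. Ddit4 stood at 128.1 and 116.9 CPM in the wild-type vehicle libraries and at 18.8 and 18.61 in the knockout ones, and was lower in the knockout under all treatments by a log2 value of -3.16 ± 0.18 (adjusted p = 1.2e-05). The 6 keratinocyte markers summed to between 16360 and 30220 CPM over the libraries. Fibroblast markers summed to between 263 and 1168 CPM and sebaceous gland markers to between 855.8 and 2018, so the scraped sheet held more than keratinocytes. In such a mixed sheet, fewer cells of a type and less RNA per cell cannot be told apart. Wild-type vehicle 1 was the lowest of the 4 vehicle libraries for 25 of the 32 genes, against 30.2% of all tested genes. The fits were repeated with each library left out in turn.

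**Figure D1:**
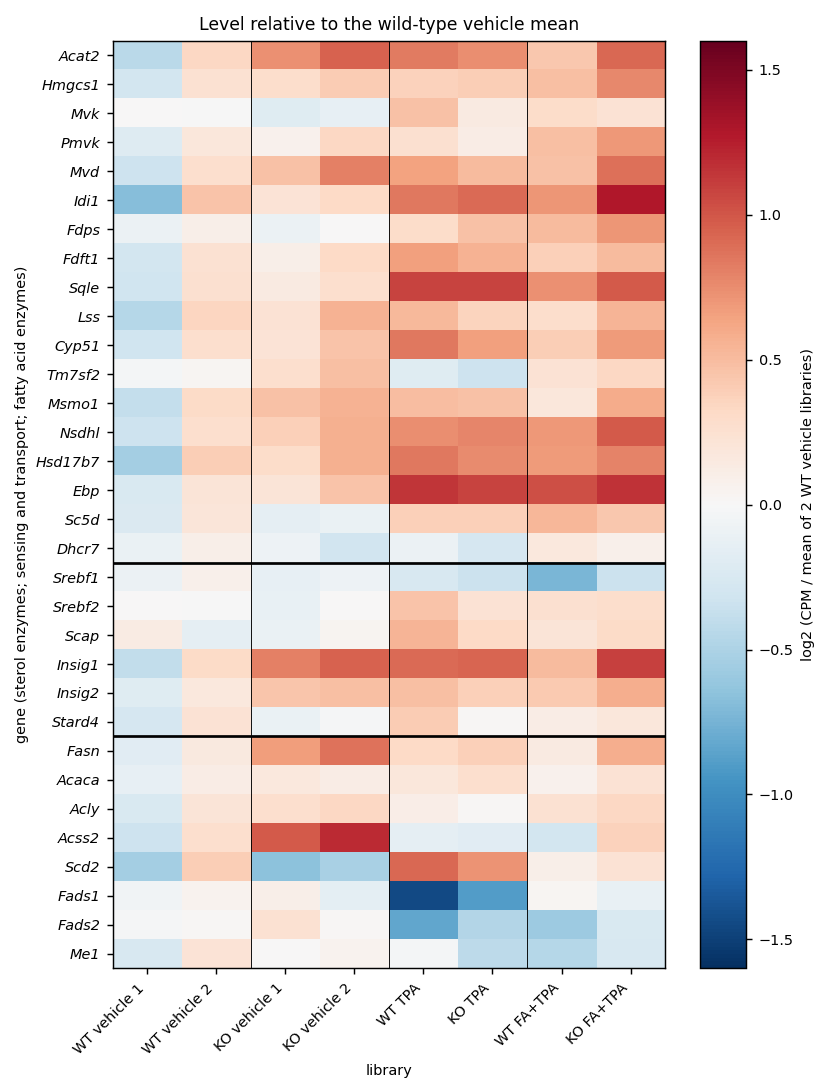
Level of each of the 32 genes (rows) in each of the 8 libraries (columns), as log2 of its CPM over the mean of the 2 wild-type vehicle libraries, red above and blue below. Black lines part the 18 sterol enzymes, the 6 sensing and transport genes and the 8 fatty acid enzymes; Sqle and Ebp are red in all 4 treated libraries, and Fads1 is darkest blue in the 2 TPA libraries.

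Per kilobase of exon, counting every exon of a gene, the most abundant transcripts in vehicle skin were Acly at 90.14 ± 14.81 CPM per kb (SD, n = 4), Hmgcs1 at 89.04 ± 17.16 and Fasn at 86.92 ± 27.55. These 3 levels did not differ beyond their spread. Cyp51 followed at 49.32 ± 10.45 and Srebf2 at 40.4 ± 1.699, which also overlapped. By the longest transcript in place of all exons, Hmgcs1, Acly and Fasn were still the 3 highest, but Msmo1 moved from 38.94 to 80.59 CPM per kb, next after them, and Dhcr7 from 26.45 to 54.65, beside Cyp51 at 55.39 and Srebf2 at 57.17, so the order below the first 3 depends on the length used. At the low end stood the desaturases Fads1 at 2.383 ± 0.1924 and Fads2 at 0.4554 ± 0.0383, with the isoprenoid isomerase Idi1 between them at 0.7102 ± 0.2122. The SD covers both genotypes, so a difference between them enters it. Idi1 has a processed pseudogene identical over 684 bases, so its low level is uncertain where reads that match both copies were dropped.

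After TPA, most sterol enzymes rose, while 3 of the 8 fatty acid enzymes were called, in both directions, beside 46.0% of all tested genes. Over both genotypes, 10 of the 18 sterol enzymes rose and 1 fell, with a median log2 fold change of 0.40 beside -0.03 over all tested genes. Of the 8 fatty acid enzymes, 1 rose and 2 fell, with a median of -0.16. Of the 6 sensing and transport genes, 2 rose and none fell. These 13 rises and 3 falls among 32 genes stand beside a background of 46.0% of all tested genes called, 23.2% higher and 22.8% lower. At an unadjusted p under 0.05 there were 18, beside 52.7% of all tested genes. By genotype, the median log2 ratio of TPA to vehicle over the sterol enzymes was 0.58 in wild type and 0.3 in knockout. Over the fatty acid enzymes it was 0.04 and -0.41, and over all 32 genes 0.46 and 0.06. The genotypes differed in sign for 8 of the 32 genes, 5 of them sterol enzymes. Each genotype had 1 TPA library. Other cell types moved with TPA. Neutrophil markers summed to between 1.36 and 2.95 CPM in vehicle skin, where Ly6g was at 0, and to between 47.5 and 75.7 in TPA skin. Fibroblast markers summed to between 621 and 1168 CPM in vehicle and between 386.3 and 512.9 in TPA skin, but were split: the 3 collagen genes of the 6 markers were called lower, while Pdgfra at 2.04 ± 0.37 (adjusted p = 0.0011) and Dcn at 1.57 ± 0.51 (0.0283) were called higher. Sebaceous markers summed to between 855.8 and 1798 CPM in vehicle and between 1800 and 2018 in TPA skin. Of these 10 markers 3 were called higher and 1 lower, with a median of 0.20. Krt79 made up the largest part of the TPA sums. It stood between 220.2 and 515.5 CPM in vehicle and at 995.1 and 1246 in TPA, a rise of 1.65 ± 0.17 (adjusted p = 3.09e-05). Scd3 was at -1.73 ± 0.36 (0.00253). All 5 Langerhans cell and all 5 T cell markers were called lower. Of the 7 macrophage markers 5 were called higher and 1 lower, and all 3 endothelium markers were called higher. Keratinocyte markers moved both ways. Krt14 at 1.58 ± 0.09 (adjusted p = 5.93e-07) and Dsg3 at 1.01 ± 0.10 (1.72e-05) were called higher. Krt10 at -1.84 ± 0.14 (3.11e-06) and Trp63 at -0.45 ± 0.12 (0.0114) were called lower. The part of these markers in these results was not tested.

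Sqle, squalene epoxidase, the oxygen-dependent step that opens the sterol branch, stood at 133.9 and 199.8 CPM in wild-type vehicle skin, 185.1 and 201.1 in knockout vehicle skin, 354.2 in wild-type TPA, 351.9 in knockout TPA, 276.5 in wild-type FA+TPA and 330.4 in knockout FA+TPA. All 4 treated libraries lay above all 4 vehicle libraries. Its log2 rise after TPA was 0.98 ± 0.14 (adjusted p = 0.000184). Ebp, the sterol isomerase, stood at 19.3 and 26.3 CPM in wild-type vehicle, 26.3 and 31.3 in knockout vehicle, 50.5 in wild-type TPA, 48.4 in knockout TPA, 46.4 in wild-type FA+TPA and 50.8 in knockout FA+TPA. Here too the treated and vehicle libraries did not overlap, and the log2 rise after TPA was 0.95 ± 0.14 (adjusted p = 0.000234). Sqle (chr15:59315077-59331192, +) and Ebp (chrX:8185329-8193512, -), in mm10 coordinates, overlapped no exon of another gene. Both stayed past the threshold in all 16 alternative analyses.

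The other 8 sterol enzymes that rose span the pathway. In the mevalonate and isoprenoid steps these were mevalonate kinase Mvk at 0.39 ± 0.08 (adjusted p = 0.00297), Idi1 at 0.73 ± 0.27 (0.0445) and farnesyl diphosphate synthase Fdps at 0.40 ± 0.11 (0.0102). At the squalene step, Fdft1 rose by 0.50 ± 0.14 (adjusted p = 0.0116). Among the enzymes after lanosterol, the demethylase Cyp51 rose by 0.59 ± 0.16 (adjusted p = 0.0119), Nsdhl by 0.52 ± 0.16 (0.0186), Hsd17b7 by 0.58 ± 0.21 (0.0417) and the desaturase Sc5d by 0.44 ± 0.11 (0.00725). Cyp51 stood at 153.6, 230.7, 223.6 and 263.2 CPM in the vehicle libraries and at 344.1 and 303.0 in the TPA libraries. Both TPA libraries lay above all 4 vehicle libraries for 14 of the 32 genes, beside 28.0% of all tested genes. Among the 18 sterol enzymes they did so for 10, the same 10 that were called higher. Call and pattern come from the same libraries, so the pattern is no separate evidence. Idi1 kept the call in 6 of 16 alternatives and Hsd17b7 in 9. With scaling by library size alone, all of these other 8 enzymes lost the call. Without wild-type TPA, Mvk, Fdft1, Cyp51, Nsdhl and Hsd17b7 lost the call, and without knockout TPA, Fdps and Sc5d did; Idi1 lost it without either. Fdps and Fdft1 have processed pseudogenes of 98.9% and 97.4% identity over 1062 and 1249 bases, Fdps also matches the coding gene model Gm43738 at 100% over 929 bases, and the exons of Fdft1 and Cyp51 overlap Ctsb and Akap9 on the opposite strand, so these 3 are uncertain.

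The remaining 8 sterol enzymes included 1 that fell. Tm7sf2, a sterol reductase, stood at 14.1 and 14.9 CPM in wild-type vehicle, 17.4 and 20.2 in knockout vehicle, and 12.7 and 11.5 in wild-type and knockout TPA. Both TPA libraries were below all vehicle libraries, and the log2 change was -0.46 ± 0.14 (adjusted p = 0.0236), lost without knockout vehicle 2 or knockout TPA. Its exons overlap Vps51 on the same strand, so its counts are uncertain. The first 2 enzymes of the arm did not pass, with the thiolase Acat2 at 0.37 ± 0.22 (adjusted p = 0.186) and Hmgcs1 at 0.22 ± 0.14 (0.223). Nor did the other mevalonate enzymes, Pmvk at 0.09 ± 0.13 (0.617) and Mvd at 0.26 ± 0.19 (0.306). The lanosterol synthase Lss was at 0.24 ± 0.20 (0.34), the methyl sterol oxidase Msmo1 at 0.23 ± 0.17 (0.292) and the late reductase Dhcr7 at -0.08 ± 0.10 (0.497).

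In the sensing and transport list, the SREBP gene chiefly tied to sterol enzymes, Srebf2, stood between 272.0 and 297.3 CPM in the 4 vehicle libraries and at 405.6 and 347.3 in wild-type and knockout TPA. It rose by 0.37 ± 0.09 (adjusted p = 0.00467). Scap, the escort of SREBP, stood between 125.9 and 153.3 CPM in vehicle and at 203.3 and 174.6 in TPA, a rise of 0.45 ± 0.10 (adjusted p = 0.0047). The groups did not overlap for either gene, and each lost the call without wild-type TPA or with scaling by library size alone. Srebf1, the SREBP gene chiefly tied to fatty acid enzymes, was at -0.24 ± 0.12 (adjusted p = 0.109). Insig1 was at 0.48 ± 0.20 (0.0702), Insig2 at 0.20 ± 0.13 (0.244) and the sterol carrier Stard4 at 0.25 ± 0.13 (0.156).

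The fatty acid enzymes that changed were desaturases and an acetate-activating enzyme. Scd2, a stearoyl-CoA desaturase, stood at 95.8 and 182.6 CPM in wild-type vehicle, 88.0 and 97.5 in knockout vehicle, 262.0 in wild-type TPA, 229.1 in knockout TPA, 148.9 in wild-type FA+TPA and 163.2 in knockout FA+TPA. The TPA libraries were the 2 highest, and the log2 rise was 1.10 ± 0.22 (adjusted p = 0.00178). Fads1, a desaturase of polyunsaturated fatty acids, stood at 11.1 and 12.1 CPM in wild-type vehicle, 12.4 and 10.4 in knockout vehicle, 4.25 in wild-type TPA, 6.24 in knockout TPA, 11.8 in wild-type FA+TPA and 10.6 in knockout FA+TPA. The TPA libraries were the 2 lowest, and the log2 change after TPA was -1.12 ± 0.18 (adjusted p = 0.000454). Both calls held in all 16 alternatives. Scd2 shares 95.5% identity over 623 bases with a paralogue, so its counts are uncertain to that extent. Acss2 stood at 29.3 and 44.4 CPM in wild-type vehicle, 72.6 and 84.3 in knockout vehicle, 33.5 in wild-type TPA and 32.5 in knockout TPA. The TPA libraries lay between the 2 wild-type vehicle libraries and below both knockout ones, with a log2 ratio to vehicle of -0.14 in wild type and -1.27 in knockout. Over both, the change was -0.70 ± 0.23 (adjusted p = 0.0317). The Acss2 call held in 9 of 16 alternatives and was lost with DESeq2 (adjusted p = 0.119) and without either knockout vehicle library, wild-type vehicle 2, knockout TPA or either FA+TPA library.

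The core of fatty acid synthesis showed no call after TPA. Fasn was at -0.02 ± 0.16 (adjusted p = 0.919), acetyl-CoA carboxylase Acaca at 0.15 ± 0.09 (0.203), Acly at -0.08 ± 0.13 (0.631) and malic enzyme Me1, a source of NADPH, at -0.23 ± 0.14 (0.226). For Fasn this averages a log2 ratio to vehicle of 0.32 in wild type and -0.38 in knockout, with 1 TPA library each. The ratios in wild type and knockout were 0.1 and -0.27 for Acly, 0.18 and 0.12 for Acaca, and -0.03 and -0.44 for Me1. Fads2, partner of Fads1 in the same desaturation pathway, was at -0.70 ± 0.27 (0.0578); both its TPA libraries, at 0.801 and 1.03 CPM, were below the vehicle range of 1.41 to 1.69. Over the 32 genes, 4 had both TPA libraries below all vehicle libraries, beside 29.0% of all tested genes. Acaca and Me1 have processed pseudogenes of 99.2% and 98.5% identity over 6118 and 1638 bases, and their values are uncertain to that extent.

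**Figure D2:**
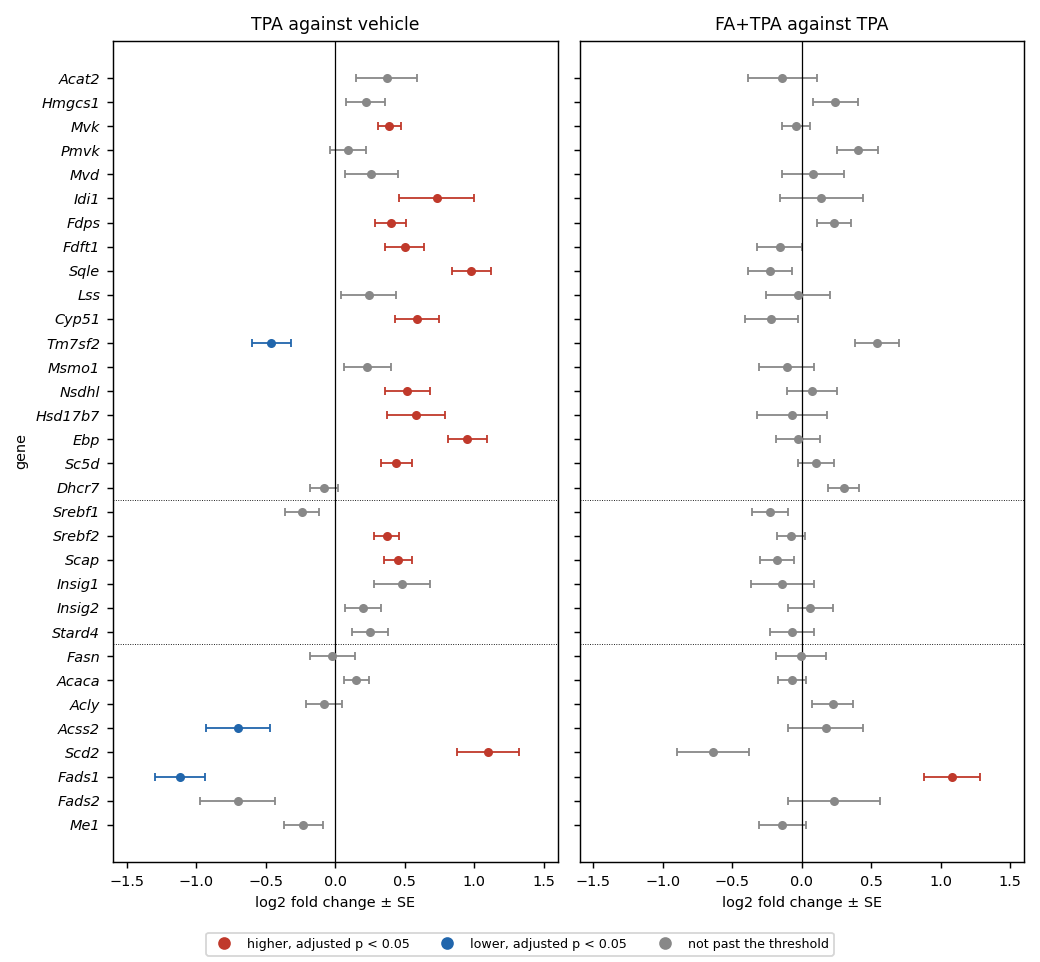
Log2 fold change with its standard error (x axis) for each of the 32 genes (y axis) in TPA against vehicle and in FA+TPA against TPA, both fitted over the 2 genotypes. Red marks genes past the threshold and higher, blue those lower: 13 and 3 after TPA, and Fads1 alone with FA.

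Without the wild-type TPA library 5 genes were called higher in place of 13, and without wild-type vehicle 1 the count was 12. Scaling by library size alone, which shifted the median of all genes to -0.253, gave 3 of the 32 higher and 7 lower, and 2846 higher and 6432 lower over all genes against 4472 and 4380, while the sterol median stayed 0.42 above the all-gene median. The noncoding transcript Gm26917 took 8.34% to 13.83% of counts in vehicle libraries and 16.77% to 24.21% in treated ones; with it removed, 13 genes were still called higher.

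The summed levels of the 2 arms are given as a description with no test. They come from the same libraries and genes as the fold changes, so they are no separate evidence. The sterol enzymes summed to 1346 and 1943 CPM in wild-type vehicle, 1909 and 2111 in knockout vehicle, 2446 and 2325 in wild-type and knockout TPA, and 2222 and 2607 in FA+TPA. The fatty acid enzymes summed to 1286 and 1737 CPM in wild-type vehicle, 2009 and 2212 in knockout vehicle, 1835 and 1800 in TPA, and 1639 and 1999 in FA+TPA. Their TPA sum lay above both vehicle sums in wild type and below both in knockout. The ratio of sterol to fatty acid sum was 1.047 and 1.119 in wild-type vehicle and 0.95 and 0.954 in knockout vehicle. It was 1.333 and 1.292 in TPA and 1.356 and 1.304 in FA+TPA, so all 4 treated libraries lay above all 4 vehicle ones, and within vehicle the knockout lay below the wild type. A ratio within a library does not depend on its scaling, but abundant genes such as Fasn weigh most in it. The median log2 level relative to wild-type vehicle weighs genes equally. The sterol median exceeded the fatty acid median by 0.54 and 0.57 in TPA and by 0.42 and 0.47 in FA+TPA, against -0.09, 0.07, 0.02 and 0.34 in the vehicle libraries.

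**Figure D3:**
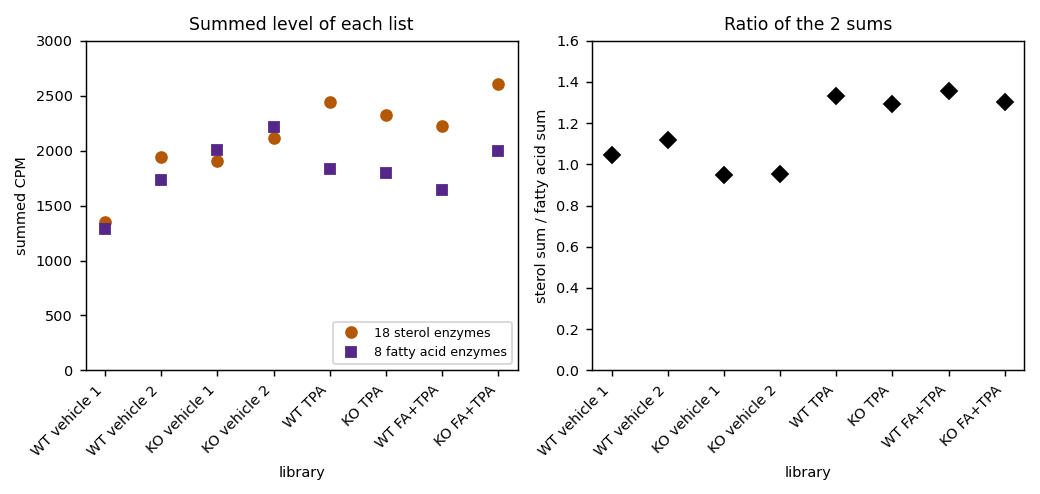
Summed CPM of the 18 sterol enzymes and the 8 fatty acid enzymes in each library (left), and the ratio of the 2 sums (right), with 1 point for each library. The ratio runs from 0.95 to 1.119 in vehicle libraries and from 1.292 to 1.356 in treated ones.

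With FA given before TPA, Fads1 was the one gene of the 32 that changed against TPA alone. It rose by 1.08 ± 0.20 (adjusted p = 0.0065), with FA+TPA libraries at 11.8 and 10.6 CPM, inside the vehicle range of 10.4 to 12.4. The call was lost without wild-type TPA or wild-type FA+TPA, with an adjusted p of up to 0.0909. The background was 10% of all tested genes called, 5.71% higher and 4.31% lower. Both FA+TPA libraries lay above both TPA libraries for 8 of the 32 genes, beside 27.4% of all tested genes, and below for 4, beside 25.4%. Without wild-type vehicle 1, 3 genes were called higher, Fads1, Tm7sf2 and Pmvk. No gene was called lower with all libraries and the low-count filter by edgeR, limma-voom or DESeq2, and 1, Scd2, was lower at an unadjusted p under 0.05. Scd2 was called lower by edgeR in 2 of 16 alternatives, at -0.65 (adjusted p = 0.000507) with no low-count filter and at -0.67 (0.00431) without wild-type vehicle 2. This comparison shares its TPA libraries with TPA against vehicle, so opposite signs in the 2 are no separate evidence. Among markers, keratinocyte genes summed to between 16360 and 20320 CPM in TPA and between 26830 and 30220 in FA+TPA skin. Of these 6, 3 were called higher, with Krt10 at 1.89 ± 0.15 (adjusted p = 7.31e-05) and Krt1 at 1.12 ± 0.17 (0.00207), and 1 lower, Dsg3 at -0.44 ± 0.12 (0.04). The neutrophil markers Csf3r at -2.67 ± 0.34 (adjusted p = 0.000943) and Cxcr2 at -1.44 ± 0.24 (0.00358) were lower, and the 5 skeletal muscle markers had a median of 2.74 with none called. Of the 10 sebaceous markers 1, the keratin gene Krt79, was at -1.21 ± 0.21 (adjusted p = 0.00516). Their part in the Fads1 result was not tested.

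No sterol enzyme passed, and their median log2 difference was 0.02. Tm7sf2 came nearest at 0.54 ± 0.16 (adjusted p = 0.0646), with 17.0 and 18.2 CPM in FA+TPA against 12.7 and 11.5 in TPA. In the early steps Acat2 was at -0.14 ± 0.25 (0.808), Hmgcs1 at 0.24 ± 0.16 (0.413), Mvk at -0.04 ± 0.10 (0.842), Pmvk at 0.40 ± 0.15 (0.126) and Mvd at 0.08 ± 0.22 (0.872). Idi1 was at 0.14 ± 0.30 (0.844), Fdps at 0.23 ± 0.12 (0.317) and Fdft1 at -0.16 ± 0.16 (0.604). The 2 enzymes with the smallest p after TPA were Sqle at -0.23 ± 0.16 (0.455) and Ebp at -0.03 ± 0.16 (0.946). Lss was at -0.03 ± 0.23 (0.958), Cyp51 at -0.22 ± 0.19 (0.54), Msmo1 at -0.11 ± 0.20 (0.809), Nsdhl at 0.07 ± 0.18 (0.868), Hsd17b7 at -0.07 ± 0.25 (0.903), Sc5d at 0.10 ± 0.13 (0.707) and Dhcr7 at 0.30 ± 0.11 (0.118).

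The sensing genes gave a median of -0.11. Srebf1 was at -0.23 ± 0.13 (adjusted p = 0.35), Srebf2 at -0.08 ± 0.10 (0.714), Scap at -0.18 ± 0.12 (0.441), Insig1 at -0.14 ± 0.23 (0.789), Insig2 at 0.06 ± 0.16 (0.868) and Stard4 at -0.07 ± 0.16 (0.856). Among the fatty acid enzymes other than Fads1, Scd2 was at -0.64 ± 0.26 (0.16), with both FA+TPA libraries below both TPA libraries. Fasn was at -0.01 ± 0.18 (0.991), Acaca at -0.07 ± 0.10 (0.758), Acly at 0.22 ± 0.15 (0.427), Acss2 at 0.17 ± 0.27 (0.764), Fads2 at 0.23 ± 0.33 (0.746) and Me1 at -0.14 ± 0.17 (0.684). The genotypes differed in sign for 17 of the 32 genes, with a median log2 ratio of FA+TPA to TPA of -0.17 for wild type and 0.17 for knockout. No genotype had another library in these groups, so the spread within a genotype could not be measured.

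Against vehicle, FA+TPA skin had 10 of the 32 genes higher and 1 lower, beside a background of 31.6% called, 17.4% higher and 14.2% lower. At an unadjusted p under 0.05 there were 18, beside 42.2%. Both FA+TPA libraries lay above all vehicle libraries for 13 genes, beside 24.7% of all tested genes, and below for 2, Srebf1 and Fads2, beside 22.9%. Of the sterol enzymes 9 rose, with all 18 fold changes above 0 and a median of 0.41 beside -0.01 over all tested genes. Markers of other cells moved here too: all 3 neutrophil markers tested and 5 of 7 macrophage markers were called higher, and all 5 Langerhans cell and all 5 T cell markers lower. Of the 6 keratinocyte markers 4 were called higher and 1 lower, and they summed to between 17380 and 20290 CPM in vehicle and between 26830 and 30220 in FA+TPA skin. Their part in these results was not tested. The largest sterol changes were Ebp at 0.92 ± 0.14 (adjusted p = 0.000578), Idi1 at 0.87 ± 0.27 (0.0305), Sqle at 0.75 ± 0.14 (0.00193) and Fdps at 0.63 ± 0.11 (0.00127). Nsdhl was at 0.59 ± 0.16 (0.015), Sc5d at 0.54 ± 0.11 (0.00374), Pmvk at 0.49 ± 0.13 (0.014), Hmgcs1 at 0.46 ± 0.14 (0.0254) and Mvk at 0.34 ± 0.08 (0.00964). Srebf2 rose by 0.30 ± 0.09 (adjusted p = 0.0231). Srebf1 went the other way, at 161.9 and 182.3 CPM in wild-type vehicle, 157.8 and 162.0 in knockout vehicle, 103.6 in wild-type FA+TPA and 136.0 in knockout FA+TPA. Both FA+TPA libraries were below all vehicle libraries, and its log2 change was -0.47 ± 0.12 (adjusted p = 0.0112), lost without wild-type FA+TPA. Its exons overlap Rai1 on the opposite strand. No fatty acid enzyme was called by edgeR with all libraries and the main settings. Me1 at -0.36 ± 0.15 (adjusted p = 0.0806) and Acss2 at -0.53 ± 0.23 (0.108) had an unadjusted p under 0.05, and limma-voom and DESeq2 called neither. Scd2 was at 0.46 ± 0.22 (0.136). Other edgeR settings called Acss2 lower in 6 of 16 alternatives (lowest adjusted p = 0.00243), Me1 lower in 4 (0.0052) and Scd2 higher in 2 (0.000718). These included no low-count filter for all 3 genes, leaving out wild-type vehicle 1 or knockout TPA for Acss2 and Me1, and leaving out wild-type vehicle 2 for Scd2. Scap was at 0.28 ± 0.10 (adjusted p = 0.068). Leaving out wild-type FA+TPA left 3 genes higher, leaving out knockout FA+TPA left 4, leaving out wild-type vehicle 1 gave 12, and library size alone gave 3 higher and 3 lower (1953 and 4982 over all genes, against 3347 and 2729).

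**Figure D4:**
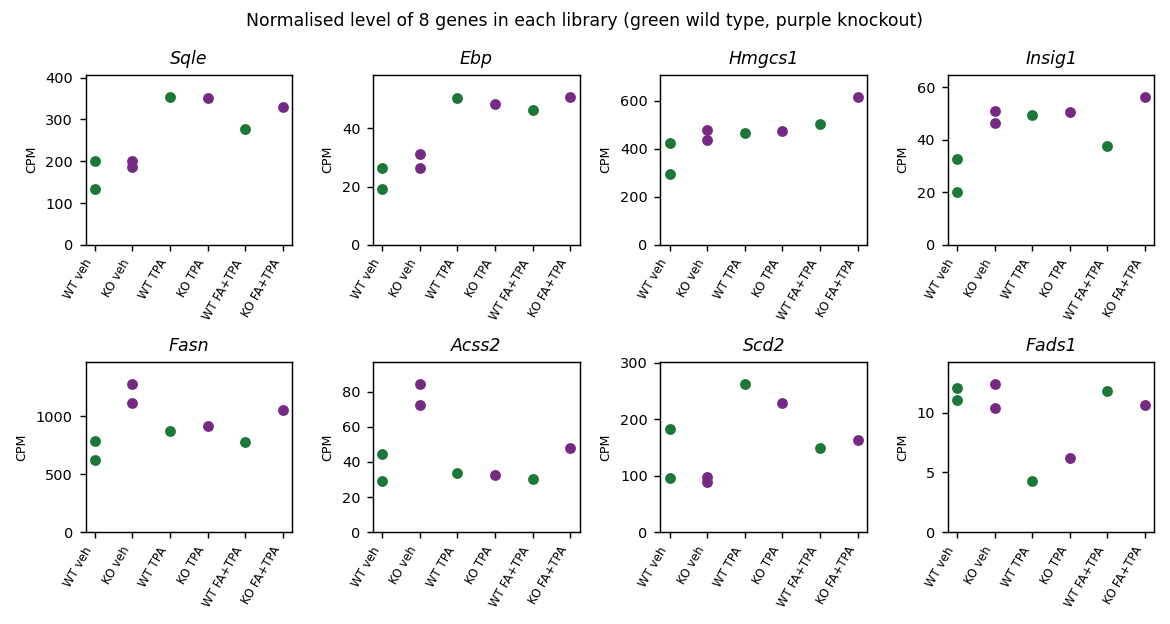
CPM of 8 genes (y axis from 0) in the 6 groups (x axis), with 1 point for each library, green for wild type and purple for knockout. Sqle and Ebp are higher in the 4 treated libraries, Fasn, Acss2 and Insig1 are higher in knockout than in wild-type vehicle skin, and Fads1 is low only in the 2 TPA libraries.

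In vehicle skin without REDD1, 2 fatty acid enzymes were higher than in the wild type, Fasn and Acss2. The background was 2.17% of all tested genes called, 1.44% higher and 0.727% lower. Fasn stood at 620.2 and 786.5 CPM in wild type and at 1120 and 1280 in knockout vehicle skin. The groups did not overlap, and the log2 difference was 0.77 ± 0.16 (adjusted p = 0.0352), lost without knockout vehicle 2 and with a minimum count of 50. Acss2, at 29.3 and 44.4 CPM in wild type against 72.6 and 84.3 in knockout, differed by 1.09 ± 0.18 (adjusted p = 0.0151) and kept the call in 17 of 17 alternatives. Its exons overlap those of Gss and Ggt7 on the opposite strand, so its counts are uncertain. Acaca, which makes the malonyl-CoA that FASN uses, was at 0.15 ± 0.13 (adjusted p = 0.806), Acly at 0.30 ± 0.16 (0.566) and Scd2 at -0.59 ± 0.24 (0.359).

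No sterol enzyme and no sensing gene passed in this comparison. Insig1, itself a known SREBP target, stood at 20.2 and 32.7 CPM in wild type and at 46.4 and 50.9 in knockout. The groups were apart, at 0.88 ± 0.20 (adjusted p = 0.0525), and 15 of 17 alternatives put it past the threshold. Insig2 was at 0.46 ± 0.14 (adjusted p = 0.166) and Srebf1 at -0.11 ± 0.12 (0.874). The sterol enzymes with the smallest p were Acat2 at 0.84 ± 0.21 (adjusted p = 0.0831), Mvd at 0.65 ± 0.19 (0.156) and Msmo1 at 0.51 ± 0.19 (0.311). Acat2 has a paralogue, Acat3, of 97.7% identity over 1477 bases, and is uncertain on that account. In all, 13 genes had both knockout libraries above both wild-type ones, beside 19.7% of all tested genes, and 1, Mvk, had them below, beside 20.1%. Leaving out either wild-type vehicle library left 1 library in that group, and calls rose both among the 32 genes and over all tested genes. Over the 17 alternatives the log2 difference ran from 0.6 to 0.95 for Fasn, 0.82 to 1.43 for Acss2 and 0.57 to 1.27 for Insig1.

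Markers of sebaceous glands and of skeletal muscle moved with this difference. Of the 10 sebaceous markers 8 were called higher in knockout vehicle skin, with a median of 1.42. They summed to between 855.8 and 1176 CPM in wild-type and between 1416 and 1798 in knockout vehicle skin, and none was at 0. Those with the smallest p were the melanocortin receptor Mc5r at 1.95 ± 0.27 (adjusted p = 0.00691), Scd3 at 1.65 ± 0.23 (0.00693), the wax ester enzyme Awat1 at 1.68 ± 0.26 (0.0102) and the lipid droplet gene Cidea at 1.45 ± 0.22 (0.0102). Of the 5 skeletal muscle markers 4 were called higher, with a median of 3.15, and they summed to between 4.966 and 19.16 CPM in wild-type and between 49.75 and 161.4 in knockout vehicle skin. The 5 T cell markers were all below 0, with a median of -0.75 and none called. The part of these markers in the Fasn and Acss2 result was not tested. In TPA skin the sebaceous markers summed to 1800 CPM in wild type and 2018 in knockout, with Krt79 alone at 995.1 and 1246. In FA+TPA skin they summed to 1049 in wild type and 1725 in knockout, with Krt79 at 365.1 and 634.2. Adipocyte markers summed to between 39.0 and 40.1 CPM in wild-type and between 33.7 and 37.2 in knockout vehicle skin, mostly from Lipe, and Adipoq, which defines adipocytes, was at most 0.544 CPM in any library.

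Taken over all 3 treatments, no gene of the 32 was called between knockout and wild type by edgeR, beside a background of 3.58% called, 1.98% higher and 1.6% lower. At an unadjusted p under 0.05 there were 10, 9 higher and 1 lower, beside 16.0% of all tested genes. The smallest adjusted p among fatty acid enzymes were Fasn at 0.51 ± 0.13 (adjusted p = 0.055), Acss2 at 0.71 ± 0.19 (0.0657) and Acaca at 0.13 ± 0.07 (0.431). Among the others Insig1 was at 0.59 ± 0.16 (0.0874), Acat2 at 0.51 ± 0.18 (0.18), Mvk at -0.18 ± 0.07 (0.221), Mvd at 0.39 ± 0.16 (0.248), Insig2 at 0.24 ± 0.11 (0.312) and Srebf2 at -0.08 ± 0.07 (0.678). Limma-voom called 1 gene higher, Fasn, and DESeq2 called 2, Fasn and Insig1, scaling by library size alone called 3 (640 higher and 233 lower over all genes, against 382 and 308), and no filter on low counts called 6. Leaving out either TPA library gave 4.

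The genotype difference was then set side by side for the 3 treatments. The median log2 ratio of knockout to wild type over the 32 genes was 0.24 in vehicle skin, with 22 genes above 0, beside 47.4% of all tested genes. In TPA skin it was -0.09, with 9 above 0, beside 50.7%, and in FA+TPA skin 0.20, with 28 above 0, beside 49.3%. The interaction of genotype with TPA called none of the 32 genes by edgeR, limma-voom or DESeq2, and 1 of all 19251, a background of 0.00519%. At an unadjusted p under 0.05 there were 6, all lower, beside 5.27% of all tested genes. Among the fatty acid enzymes the smallest p were Acss2 at -1.13 ± 0.32 (adjusted p = 0.541), Fasn at -0.70 ± 0.27 (0.839) and Fads1 at 0.58 ± 0.33 (1.0). Among sterol enzymes Acat2 was at -0.94 ± 0.36 (0.834), Mvd at -0.78 ± 0.33 (0.932) and Tm7sf2 at -0.52 ± 0.28 (1.0). Insig1 was at -0.85 ± 0.34 (0.864), Insig2 at -0.56 ± 0.24 (0.934) and Stard4 at -0.33 ± 0.28 (1.0). Leaving out either wild-type vehicle library left 1 library in that group and gave calls among the 32 genes. Calls over all tested genes rose as well, and rose too without either knockout vehicle library. Over the 13 alternatives Acss2 ran from -1.49 to -0.86. The 32 genes had a median of -0.34. All 10 sebaceous markers, with a median of -1.2, and all 5 skeletal muscle markers, with a median of -2.33, were below 0. The 3 neutrophil markers tested were above 0, with a median of 2.22. None of these markers was called, and their part in this result was not tested.

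The interaction of genotype with FA called none of the 32 genes and none of all genes tested with edgeR, a background of 0.0%, and 0 of the 32 at an unadjusted p under 0.05, beside 3.18% of all tested genes. DESeq2 called 7 genes in all, none of them among the 32. The smallest p were Srebf1 at 0.48 ± 0.25, Acss2 at 0.71 ± 0.37 and Me1 at 0.59 ± 0.32, each with an adjusted p of 1.0. Fads1, which rose with FA, was at -0.70 ± 0.38 (adjusted p = 1.0), and its rise over TPA was 1.47 in wild type and 0.77 in knockout on the log2 scale. In the sterol list the smallest p were Acat2 at 0.59 ± 0.42, Mvd at 0.54 ± 0.39 and Cyp51 at 0.47 ± 0.37, and in the sensing list Insig1 at 0.55 ± 0.39 and Stard4 at 0.45 ± 0.32, also with adjusted p of 1.0. Over all genes, leaving out wild-type vehicle 1 gave 183 calls, wild-type vehicle 2 gave 128 and either knockout vehicle library 51, with none of the 32 among them. The 32 genes had a median of 0.27. All 10 sebaceous markers were above 0, with a median of 0.93, and all 5 skeletal muscle markers below 0, with a median of -0.98. None of these markers was called, and their part in this result was not tested.

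**Figure D5:**
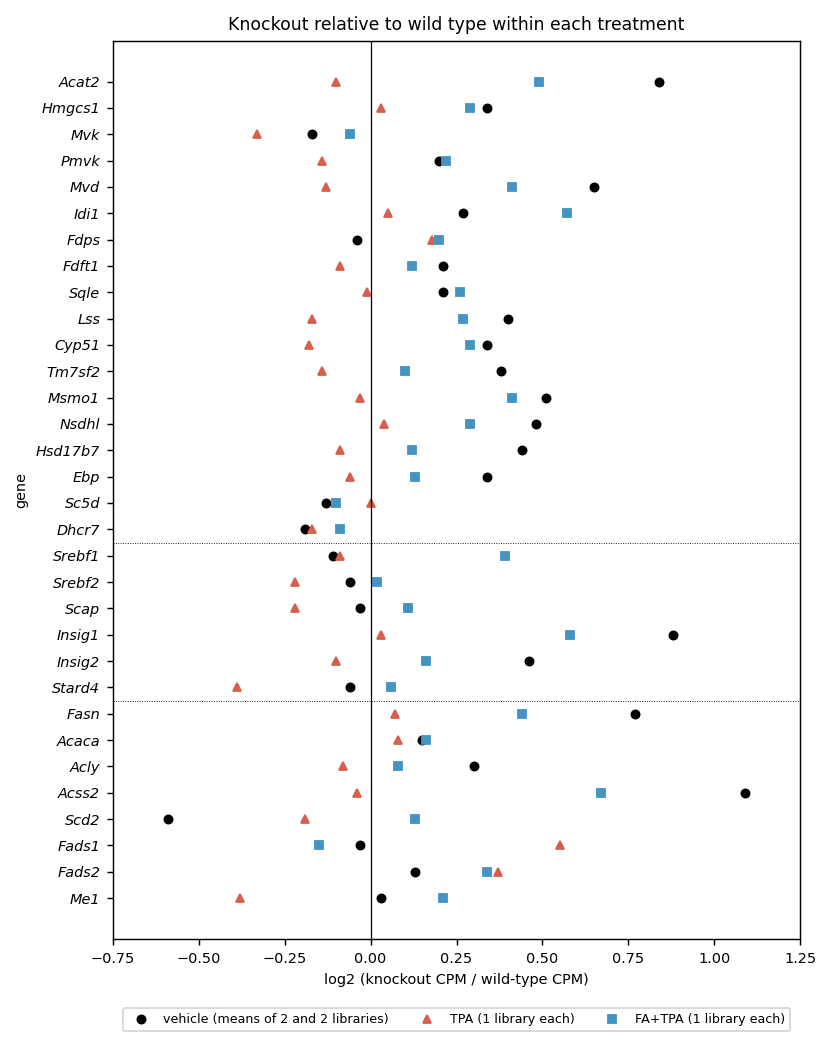
Log2 ratio of knockout to wild-type CPM (x axis) for each gene (y axis) in vehicle (black circles, means of 2 and 2 libraries), TPA (red triangles) and FA+TPA (blue squares, as TPA 1 library each). The vehicle points reach 1.09 for Acss2, and 22, 9 and 28 of the 32 genes lie above 0 in vehicle, TPA and FA+TPA.

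A further list of 38 genes of lipid metabolism that are not among the 32 was read beside them, covering elongases, acyl-CoA synthetases, sterol uptake and export. After TPA 7 of these 38 rose and 16 fell, with a median of -0.35, beside 23.2% of all tested genes called higher and 22.8% lower. Elovl7, an elongase of long fatty acids, rose by 1.49 ± 0.14 (adjusted p = 1.18e-05). Mylip, which targets lipoprotein receptors for degradation, was at -0.93 ± 0.10 (3.12e-05) and the cholesterol exporter Abca1 at -0.84 ± 0.14 (0.000611). Against TPA alone, FA+TPA had 1 of the 38 higher, the elongase Elovl1 at 0.83 ± 0.12 (0.00194), and none lower, beside 5.71% and 4.31%. Against vehicle, FA+TPA had 6 higher and 8 lower, beside 17.4% and 14.2%, among them Elovl7 at 1.49 ± 0.14 (2.94e-05), Scd3 at -2.21 ± 0.36 (0.00106) and Mylip at -0.59 ± 0.10 (0.00108). In knockout vehicle skin 13 of the 38 were higher than in wild type and none lower, beside 1.44% and 0.727%, among them Elovl5 at 1.37 ± 0.19 (0.00691), Scd3, and the carboxylase Acacb at 1.22 ± 0.19 (0.0102). Over all treatments 8 were higher in the knockout and none lower, beside 1.98% and 1.6%. Among them were Elovl5 at 1.04 ± 0.20 (adjusted p = 0.0193), the citrate carrier Slc25a1 at 0.75 ± 0.14 (0.0193) and Scd3 at 1.37 ± 0.28 (0.0237). Scd3 and Elovl3 are also sebaceous markers, so the 2 lists are not separate. Of the 10 sebaceous markers 8 were called higher in knockout vehicle skin and 7 over all treatments. Their part in the calls on this list was not tested.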

How the data were processed

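Total RNA of scraped epidermis was sequenced in 8 libraries. Per the submitters' processing notes, the authors used Trim Galore, STAR and HTSeq with mm10. Tool versions, the annotation release and strandedness of counting are not given in the sources used. The deposited values are raw counts of reads for each Ensembl gene, 1 file a library. As strandedness is unknown, a gene and one overlapping it on the other strand cannot be separated. GENCODE M21 supplied symbols and coordinates for 54165 of 54232 identifiers; 67 did not match. Promoters came from RefSeq (GRCm38.p6).

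Tests on the counts used edgeR 4.0.16 and R 4.3.3 (quasi-likelihood F test, TMM, filterByExpr by treatment, minimum count 10, 19251 genes kept), with Benjamini-Hochberg adjustment at 0.05, and checked on simulated counts. CPM used tested-gene library sizes times TMM factors. Treatment comparisons and the genotype comparison across treatments were additive for genotype and treatment (4 residual degrees of freedom). The vehicle genotype comparison and the interactions used 1 mean per group (2 degrees of freedom, from the vehicle pairs), so single treated libraries were assumed to vary like those pairs. Standard errors are the absolute log2 fold change over the square root of F. Vehicle pairs differed by more than sampling noise (chi-square per degree of freedom 28.97 and 13.33). Alternatives were RLE, library size alone, the low-count filter dropped or raised to 50 counts, limma-voom (limma 3.58.1), DESeq2 1.42.0, removal of Gm26917, 1 mean per group, leaving out each library, and vehicle libraries alone. Each of the 32 genes is named with its value in the comparisons with TPA; elsewhere those past the threshold and the 3 smallest p per list are named, and from the other lists up to 4 per comparison. A few genes taken by this rule are not reported here. The 32 genes and all lists were chosen with earlier results of these data known.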

Additional observations from a re-analysis of the deposited data

How the results depend on the processing

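Leaving out 1 library at a time gave these lowest and highest values. After TPA, genes called higher ranged from 5 to 14 and lower from 1 to 4, and the fatty acid median from -0.4 to 0.07. For FA+TPA against TPA the ranges were 0 to 3 higher, 0 to 1 lower, 571 to 2367 genes in all, and -0.23 to 0.23 for the fatty acid median. For FA+TPA against vehicle they were 3 to 13 higher, 0 to 3 lower and 2652 to 6051 in all. For knockout against wild type they were 0 to 4 higher and 288 to 630 in all over treatments, and 3 to 16 higher, 0 to 1 lower and 440 to 1465 in all in vehicle skin. For the TPA interaction they were 0 to 1 higher, 0 to 12 lower, 6 to 365 in all and -0.43 to -0.05 for the fatty acid median, and for the FA interaction 51 to 183 in all. A treated library could not be left out of the interaction that needs it.

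Library size alone gave 3 higher and 7 lower after TPA (fatty acid median -0.39), 3 and 3 for FA+TPA against vehicle (-0.25), 3 higher in the knockout over treatments and 3 genes in all for the TPA interaction. No low-count filter gave 2 higher and 1 lower for FA+TPA against TPA, 3 lower against vehicle, 6 higher over treatments (1552 in all), 4 in vehicle skin and 21 in all for the TPA interaction. A minimum count of 50 gave 1 higher in knockout vehicle skin (219 in all) and 0 for the TPA interaction. Limma-voom gave 1 higher over treatments and 0 for the TPA interaction. DESeq2 gave 2 higher over treatments, 4 in vehicle skin (266 in all), and 11 and 7 in all for the interactions. With 1 mean per group, FA+TPA against vehicle gave 2 lower and the knockout over treatments 450 in all. The causes were not tested.

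Replicate numbers paired only the vehicle libraries. Across the tested genes, same-numbered deviations correlated at -0.059 over 2 pairs. With only 2 pairs this cannot show whether same-numbered libraries share more than a number. With the replicate block on vehicle libraries alone, 7 genes were called higher and 832 in all, against 454 in all without the block.

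Reversals were all among genes not called. With library size alone after TPA, Hmgcs1 was at -0.02, Pmvk at -0.15, Insig2 at -0.03 and Acaca at -0.08. For FA+TPA against TPA, Fasn was at 0.01 with library size alone, 0.02 with limma-voom and 0.01 with 1 mean per group. Without 1 library, log2 fold changes after TPA ranged from -0.05 to 0.81 for Acat2, -0.09 to 0.3 for Pmvk, -0.1 to 0.63 for Mvd, -0.03 to 0.54 for Lss, -0.03 to 0.52 for Msmo1, -0.03 to 0.47 for Insig2, -0.33 to 0.3 for Fasn, -0.24 to 0.1 for Acly and -0.47 to 0.04 for Me1. For FA+TPA against TPA they ranged from -0.56 to 0.3 for Acat2, -0.18 to 0.05 for Mvk, -0.29 to 0.45 for Mvd, -0.09 to 0.3 for Idi1, -0.32 to 0.24 for Lss, -0.51 to 0.04 for Cyp51, -0.39 to 0.16 for Msmo1, -0.15 to 0.26 for Nsdhl, -0.31 to 0.15 for Hsd17b7, -0.23 to 0.14 for Ebp, -0.21 to 0.02 for Srebf2, -0.53 to 0.26 for Insig1, -0.2 to 0.3 for Insig2, -0.29 to 0.12 for Stard4, -0.32 to 0.31 for Fasn, -0.34 to 0.7 for Acss2 and -0.41 to 0.1 for Me1.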

Other observations

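The 6 fatty acid elongases on the wider list, described beyond the naming rule after their values were seen, did not move as one after TPA. Elovl7 stood at 65.6 and 75.3 CPM in wild-type vehicle, 89.5 and 105.6 in knockout vehicle, 247.7 and 219.6 in TPA, and 235.4 and 232.5 in FA+TPA, with no overlap between vehicle and treated libraries. Elovl4, which makes the very long chains of barrier ceramides, rose by 0.63 ± 0.20 (adjusted p = 0.0229), and Elovl3, an elongase that is also a sebaceous marker, by 1.09 ± 0.31 (0.0134). Elovl5 was at -0.96 ± 0.25 (0.00983) and Elovl6 at -0.56 ± 0.20 (0.0364), while Elovl1 was at -0.26 ± 0.11 (0.0712). Elovl1 stood between 416.7 and 531.5 CPM in vehicle, at 435.0 and 344.9 in TPA, and at 753.2 and 632.6 in FA+TPA, above every other library. In knockout vehicle skin Elovl5 stood at 333.2 and 442.0 CPM against 122.8 and 177.1 in wild type, and Elovl6 at 781.9 and 794.8 against 312.1 and 507.5, a difference of 0.94 ± 0.20 (adjusted p = 0.0415).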
